A study of Mus musculus with 4 samples.

Results

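The inflammatory CC chemokine ligands described here were Ccl2, Ccl3, Ccl4, Ccl5, Ccl6, Ccl7, Ccl8, Ccl9 and Ccl12, taken by gene name from the annotation of a whole mouse genome array. They were 9 of the 23185 genes with a symbol on the array, each had 1 probe, and all 9 were well above background on all 4 arrays. Bone marrow-derived macrophages (BMDMs) of 10-week-old C57BL/6J mice were differentiated for 6 days in L929 cell supernatant and stimulated for 2 days. M1 BMDMs were wild type and received IFN-γ at 20 ng/ml with LPS at 100 ng/ml, and M2 BMDMs were wild type and received IL-4 at 50 ng/ml. Lamtor1-deficient BMDMs received the same IL-4, and Torin1-treated BMDMs were wild type and received the same IL-4 together with the mTOR inhibitor Torin1 at 250 nM. The deficient cells are labelled p18 (2400001E08Rik) -/-, and the study's methods describe them as Lamtor1 flox/flox LysM-Cre, in which the LysM promoter drives Cre in myeloid cells, so the gene is deleted as myeloid cells form. Lamtor1 anchors the Ragulator complex on lysosomes, where mTORC1 is activated. Each condition was measured on 1 array, so there is no replicate error between cultures and no test, and how many mice gave each culture is not given in the sources used here.

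CC chemokines are small secreted proteins that attract leukocytes through G protein-coupled receptors. Ccl2, Ccl7 and Ccl12 attract monocytes through CCR2, and mouse Ccl8 acts on CCR8. Ccl3 and Ccl5 act on CCR1, Ccl4 attracts T cells and other leukocytes, and Ccl6 and Ccl9 are CCR1 ligands that resting myeloid cells already make. Macrophages that meet LPS and IFN-γ are a classical source of Ccl2, Ccl3, Ccl4 and Ccl5, whereas IL-4 favours ligands such as Ccl17, Ccl22 and Ccl24.

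All 9 probes lay on chromosome 11, in the mm9 coordinates of the array annotation, within a pair of clusters. The first cluster held Ccl2 (chr11:81850650-81850709), Ccl7 (chr11:81860656-81860715), Ccl12 (chr11:81916764-81916823) and Ccl8 (chr11:81930108-81930167). The second held Ccl5 (chr11:83339296-83339355), Ccl9 (chr11:83388223-83388282), Ccl6 (chr11:83401997-83402056), Ccl3 (chr11:83461358-83461417) and Ccl4 (chr11:83478052-83478111). These are probe positions, and exons and UTRs on mm9 were not analysed here. In the gene order of RefSeq on GRCm38.p6, no protein-coding gene other than Ccl11 lay between the members of the first cluster, and none between those of the second.

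Upstream sequence from RefSeq on GRCm38.p6 was at hand for Ccl3, Ccl6, Ccl8, Ccl9 and Ccl12, that is for 5 of the 9 members. The 250 bases before the start are shown for 2 neighbouring pairs whose levels are set side by side below. For Ccl12 (chr11:82101595-82101844, plus strand) and Ccl8 (chr11:82114935-82115184, plus strand), capitals mark the letters TATAAA.
Ccl12: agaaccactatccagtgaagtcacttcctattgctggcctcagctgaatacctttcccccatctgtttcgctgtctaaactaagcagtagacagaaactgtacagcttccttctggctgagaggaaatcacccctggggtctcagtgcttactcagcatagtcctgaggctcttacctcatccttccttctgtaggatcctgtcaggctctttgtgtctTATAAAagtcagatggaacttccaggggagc
Ccl8: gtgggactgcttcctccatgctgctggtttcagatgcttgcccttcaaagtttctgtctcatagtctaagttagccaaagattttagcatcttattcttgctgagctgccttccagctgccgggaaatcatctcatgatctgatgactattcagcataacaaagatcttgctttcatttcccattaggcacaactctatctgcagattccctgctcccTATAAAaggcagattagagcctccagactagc
For Ccl9 (chr11:83578637-83578886, minus strand) and Ccl6 (chr11:83593088-83593337, minus strand), capitals mark the longest run of bases that both hold.
Ccl9: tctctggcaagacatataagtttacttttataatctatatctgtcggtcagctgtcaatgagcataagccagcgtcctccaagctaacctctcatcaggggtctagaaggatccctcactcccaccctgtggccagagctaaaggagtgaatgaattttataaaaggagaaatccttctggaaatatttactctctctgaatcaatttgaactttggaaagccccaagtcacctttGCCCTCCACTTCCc
Ccl6: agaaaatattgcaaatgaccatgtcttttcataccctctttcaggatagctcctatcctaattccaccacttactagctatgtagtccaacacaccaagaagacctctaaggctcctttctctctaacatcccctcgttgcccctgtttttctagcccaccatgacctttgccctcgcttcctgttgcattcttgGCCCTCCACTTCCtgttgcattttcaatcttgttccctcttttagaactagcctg

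The upstream sequences of Ccl12 and Ccl8 aligned from base -147 to base -7 in both, counted back from the start, with 89 identities over 146 aligned columns (61.0%). TATAAA lay at bases -31 to -26 of Ccl12 and -32 to -27 of Ccl8. Searched on both strands, TATAAA was found in 12.4% of the 32851 upstream sequences of the RefSeq table and in 3 of the 5 members, the third being Ccl9, with its plus-strand match at bases -92 to -87. Ccl9 and Ccl6 shared a run of 13 bases, at -14 to -2 in Ccl9 and at -55 to -43 in Ccl6, and their best local alignment had 16 identities in 17 columns. Also searched on both strands were short letter pairs a fixed number of bases apart. GGG and CC with 5 bases between them, as in NF-κB sites, were in 45.8% of all upstream sequences and here in Ccl9 alone, at -35 to -26. TTC and GAA with 4 bases between them, the STAT6 spacing, were in 5.85% of all, and GAAA repeated after 2 bases, as in interferon-response elements, in 2.98%. Neither of these last patterns was in the 250-base windows of the 5 members. The patterns can overlap one another in principle, and in Ccl9 the plus-strand TATAAA overlapped a minus-strand match at -94 to -89.

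Levels are given below as the normalized signal, that is the spot's processed intensity divided by the 75th percentile of its array, and ratios as log2 or as folds. A level is compared only with the same probe on another array, never with another probe. The technical SD of a log2 ratio, from probes spotted at least 8 times on an array, was 0.10 for M1 over M2 and 0.09 for the other comparisons, and it covers spotting and scanning but not variation between cultures. The limit for calling a member higher or lower was 2-fold. Signals of all members were at least 728 in raw units, except that of Ccl12 on the Torin1 array, which was 22.7 where the lowest signal well above background was 15.7. The 9 probes, each of 60 bases, shared no run longer than 9 bases in any of their 36 pairs. Lamtor1 itself, listed as 2400001E08Rik, had a normalized signal of 51.2 in M1, 66.3 in M2, 1.55 in Lamtor1-deficient BMDMs and 74.96 after Torin1, so that 2.34% of the M2 signal was left in the deficient cells.

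**Figure D1:**
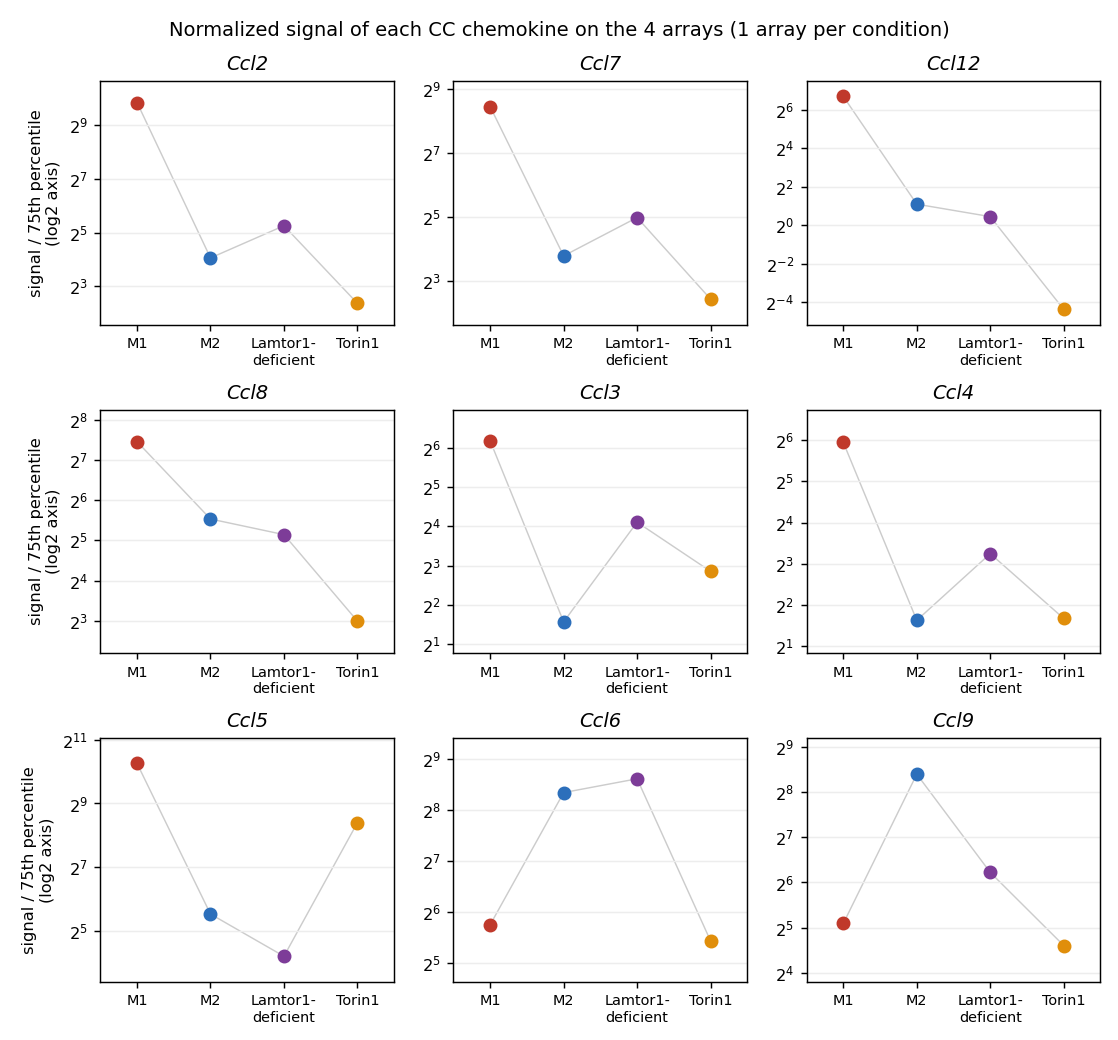
Normalized signal (signal divided by the 75th percentile of the array, log2 axis) of the 9 chemokine probes on the 4 arrays, 1 panel per gene with its own axis and 1 point per array. M1 is highest for 7 genes, Lamtor1-deficient BMDMs for Ccl6 and M2 for Ccl9, and Torin1-treated BMDMs are lowest for 6 genes (5 when arrays are shifted to their medians).

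In M1 BMDMs, 7 of the 9 chemokines were higher than in M2 BMDMs by at least 2-fold, namely Ccl2, Ccl3, Ccl4, Ccl5, Ccl7, Ccl8 and Ccl12, and Ccl6 and Ccl9 were lower. Of all 23185 genes, 30.5% were at least 2-fold higher and 19.3% lower, and of the 12826 genes that cleared the background on every array 23.9% were higher and 25.9% lower. The median log2 ratio was 4.61 over the members, 0.74 over all genes and 0.04 over the 12826 genes. When arrays were shifted to their medians instead, the median was 3.79 over the members, -0.08 over all genes and -0.78 over the 12826 genes, and the directions of the 9 members were as before. Loss of Lamtor1 and Torin1 each went with ratios in both directions. In Lamtor1-deficient BMDMs, 4 members were higher than in M2 (Ccl2, Ccl3, Ccl4 and Ccl7), 2 were lower (Ccl5 and Ccl9) and 3 were within 2-fold (Ccl6, Ccl8 and Ccl12), where 8.85% of all genes were higher and 8.68% lower, and 7.03% and 7.33% of the 12826 genes. In Torin1-treated BMDMs, 2 members were higher (Ccl3 and Ccl5), 6 were lower (Ccl2, Ccl6, Ccl7, Ccl8, Ccl9 and Ccl12) and Ccl4 was within 2-fold, where 14.3% of all genes were higher and 11.8% lower, and 11.5% and 12.7% of the 12826 genes. At a 3-fold limit, 2 members were higher and 1 was lower in Lamtor1-deficient BMDMs, where 3.01% of the 12826 genes were higher and 3.47% lower. After Torin1, 1 member was past 3-fold upward and 5 downward, where 4.76% and 6.0% of those genes were. The median log2 ratio of the members was 0.27 after loss of Lamtor1, beside 0.04 over all genes and 0.08 over the 12826 genes. With quantile normalization that member median was 0.04. After Torin1 the member median was -1.69, beside -0.05 over all genes and 0.01 over the 12826 genes. These comparisons share the M2 array, so a deviation of that array enters each of them.

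**Figure D2:**
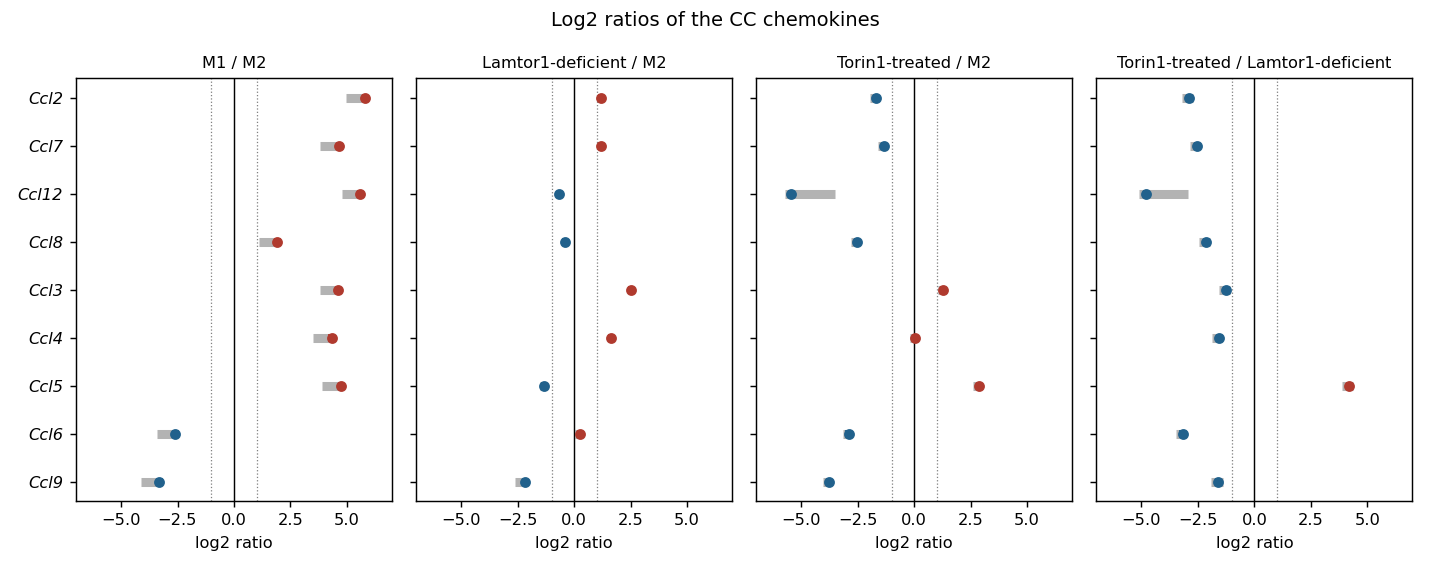
Log2 ratios of the 9 chemokines in the 4 comparisons (x axis), with error bars of 1 technical SD, which are mostly narrower than the points, grey bars for the range over the other processing settings and dotted lines at the 2-fold limit. The M1 ratios lie far from 0 on both sides, and Ccl5 is the only member on the higher side in the right panel.

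The CCR2 ligands Ccl2 and Ccl7, neighbours on the chromosome, had the same order of the 4 arrays. Ccl2, the main monocyte attractant of the family, had a normalized signal of 918 in M1, 16.6 in M2, 38.1 in Lamtor1-deficient BMDMs and 5.14 after Torin1. Ccl7, a further monocyte attractant, had 347 in M1, 13.9 in M2, 31.7 in Lamtor1-deficient BMDMs and 5.45 after Torin1. For both, M1 was far above the rest, the deficient cells were above M2 and the Torin1-treated cells were below it. Against M2, Ccl2 was 55.3-fold higher in M1 (log2 5.79), 2.30-fold higher in Lamtor1-deficient BMDMs (log2 1.20) and 3.23-fold lower after Torin1 (log2 -1.69). Ccl7 was 25.0-fold higher in M1 (log2 4.65), 2.29-fold higher in Lamtor1-deficient BMDMs (log2 1.19) and 2.54-fold lower after Torin1 (log2 -1.35). Loss of Lamtor1 and Torin1 thus went with opposite directions for this pair, and the Torin1-treated cells were 7.41-fold below the deficient cells for Ccl2 and 5.81-fold below them for Ccl7.

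Ccl2 was the only member spotted more than once, with 10 spots on each array. They ranged from 888 to 961 in M1 (median 916), from 15.4 to 17.6 in M2 (median 16.6), from 36.0 to 40.7 in Lamtor1-deficient BMDMs (median 37.8) and from 4.48 to 5.72 in Torin1-treated BMDMs (median 5.08). The ranges of the 4 arrays did not overlap. The coefficient of variation between spots was 2.34% in M1, 5.01% in M2, 4.39% in Lamtor1-deficient BMDMs and 7.16% after Torin1.

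**Figure D3:**
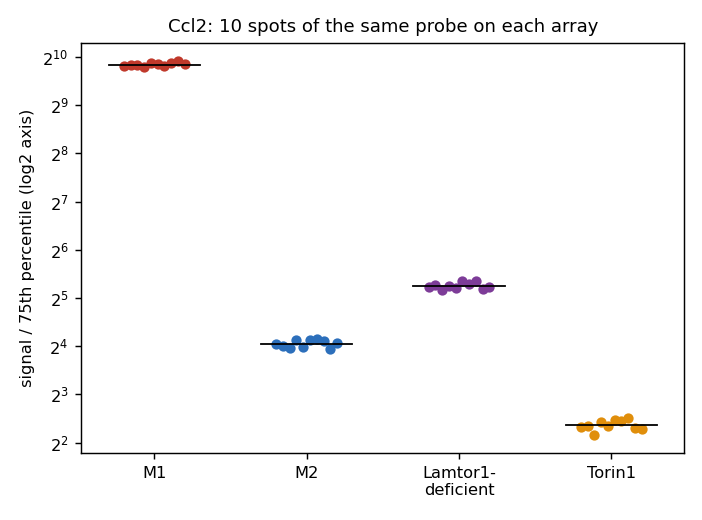
The 10 spots of the Ccl2 probe on each array (points, normalized signal on a log2 axis) with their mean (line). The arrays are separated by more than the spread of the spots, and the spots are repeats on 1 array, not separate cultures.

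Ccl12 and Ccl8, the next neighbours in the cluster, shared another order, with M1 highest, then M2, then Lamtor1-deficient and last Torin1-treated BMDMs. Ccl12, a mouse CCR2 ligand related to Ccl2, had a normalized signal of 102 in M1, 2.12 in M2, 1.36 in Lamtor1-deficient BMDMs and 0.0483 after Torin1. Ccl8 had 175 in M1, 46.2 in M2, 35.3 in Lamtor1-deficient BMDMs and 7.95 after Torin1. Unlike Ccl2 and Ccl7, neither was higher in the deficient cells. Ccl12 was 48.2-fold higher in M1 than in M2 (log2 5.59), 1.57-fold lower in Lamtor1-deficient BMDMs (log2 -0.65) and 44.0-fold lower after Torin1 (log2 -5.46). Its highest level was 2119-fold its lowest, the widest span of the 9 members, and only 25 of the 12826 genes had a lower ratio of Torin1 over M2. The Torin1 signal was close to background, and with normexp background correction the log2 ratio was -3.52, above that of Ccl9, with 91 genes lower, and the span was 483-fold. Ccl8 was 3.79-fold higher in M1 (log2 1.92), 1.31-fold lower in Lamtor1-deficient BMDMs (log2 -0.39) and 5.81-fold lower after Torin1 (log2 -2.54).

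Ccl3 and Ccl4, the neighbouring genes of macrophage inflammatory proteins 1α and 1β, were both at a higher level in M1 and in Lamtor1-deficient BMDMs than in M2. Ccl3 had a normalized signal of 72.4 in M1, 2.97 in M2, 17.2 in Lamtor1-deficient BMDMs and 7.24 after Torin1. Ccl4 had 61.6 in M1, 3.08 in M2, 9.48 in Lamtor1-deficient BMDMs and 3.18 after Torin1. Both were thus highest in M1 and next highest in the deficient cells. Ccl3 was 24.4-fold higher in M1 than in M2 (log2 4.61), 5.81-fold higher in Lamtor1-deficient BMDMs (log2 2.54) and 2.44-fold higher after Torin1 (log2 1.29), which made it the one member at least 2-fold higher in all 3 comparisons. After loss of Lamtor1 its ratio was the highest of the members, and 157 of the 12826 genes had a higher one. Ccl4 was 20.0-fold higher in M1 (log2 4.32) and 3.07-fold higher in Lamtor1-deficient BMDMs (log2 1.62). Its Torin1 and M2 levels differed by 0.04 on the log2 scale, the one difference between neighbouring levels of a member that was within 2 technical SDs, and the sign turned to -0.20 when arrays were shifted to their medians.

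Ccl5 (RANTES), which attracts T cells and monocytes, had an order of its own. Its normalized signal was 1226 in M1, 46.0 in M2, 18.3 in Lamtor1-deficient BMDMs and 337 after Torin1. The Torin1-treated cells came next to M1, and the deficient cells were lowest. Ccl5 was 26.6-fold higher in M1 than in M2 (log2 4.73), 2.51-fold lower in Lamtor1-deficient BMDMs (log2 -1.33) and 7.33-fold higher after Torin1 (log2 2.87). Directions were again opposite, but the other way round from Ccl2 and Ccl7. In the Torin1-treated cells Ccl5 was 18.4-fold above the deficient cells (log2 4.20), and 9 of the 12826 genes had a higher ratio between those arrays. The other 8 members were at least 2-fold lower in Torin1-treated than in Lamtor1-deficient BMDMs, from 2.38-fold for Ccl3 to 28.1-fold for Ccl12, where 11.6% of all genes and 12.0% of the 12826 genes were lower, and 12.7% and 9.75% higher. With normexp background correction the log2 ratio of Ccl12 was -2.93 here, and that of Ccl6, at -3.20, was the lowest. The median log2 ratio in that comparison was -2.15 over the members and -0.12 over all genes.

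Ccl6 and Ccl9, the CCR1 ligands of resting myeloid cells, were the members that M1 BMDMs held at a lower level than M2. Ccl6 had a normalized signal of 54.1 in M1, 326 in M2, 393 in Lamtor1-deficient BMDMs and 43.4 after Torin1. Ccl9 had 34.2 in M1, 336 in M2, 74.7 in Lamtor1-deficient BMDMs and 24.4 after Torin1. Both were low in M1 and after Torin1, and they parted in the deficient cells. Torin1 gave the lowest level of both, but M1 did when arrays were shifted to their medians. Ccl6 was 6.02-fold lower in M1 than in M2 (log2 -2.59) and 7.50-fold lower after Torin1 (log2 -2.91), and its log2 ratio in Lamtor1-deficient BMDMs was 0.27, or 0.04 with quantile normalization. Ccl9 was 9.83-fold lower in M1 (log2 -3.30), 4.50-fold lower in Lamtor1-deficient BMDMs (log2 -2.17) and 13.8-fold lower after Torin1 (log2 -3.79). It was the one member at least 2-fold lower in all 3 comparisons, and 103 of the 12826 genes had a lower ratio after Torin1.

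**Figure D4:**
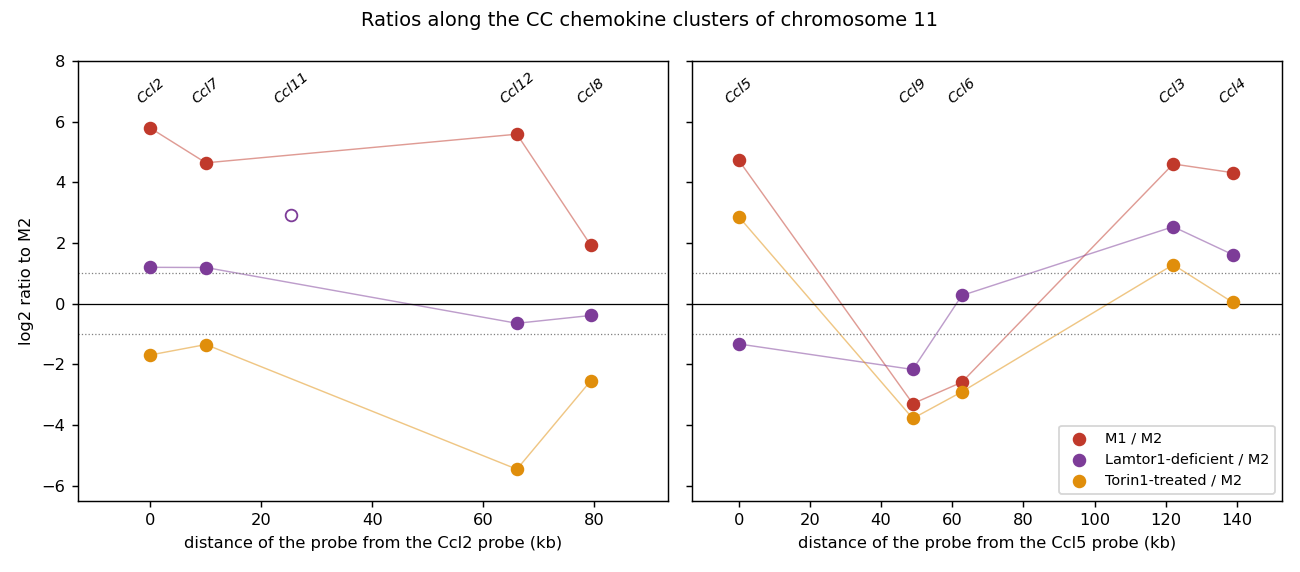
Log2 ratios to M2 against the distance of each probe from the first probe of its cluster (kb), for the cluster of Ccl2 to Ccl8 (left) and of Ccl5 to Ccl4 (right), with dotted lines at the 2-fold limit. Filled points are the 9 members and the open point is Ccl11, drawn only where it was well above background on both arrays. Ccl2 and Ccl7 nearly coincide after loss of Lamtor1 (1.20 and 1.19), and Ccl5 and its neighbour Ccl9 have opposite signs in M1 and after Torin1.

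Along the chromosome, 2 pairs of neighbouring members thus had the same order of the 4 arrays, namely Ccl2 with Ccl7 and Ccl12 with Ccl8. Ccl3 and Ccl4 did so too in the main setting, but Torin1 and M2 were not separated for Ccl4 and changed places when arrays were shifted to their medians. Ccl9 and Ccl6 differed only in the order of M2 and Lamtor1-deficient BMDMs. Probes of these pairs, in the order named, were 10.0, 13.3, 16.7 and 13.8 kb apart. Pattern likeness was also measured over all 12826 genes, as the distance between the 3 log2 ratios to M2. By this measure the member nearest to Ccl2 was Ccl7, at 1.20, with 4 other genes nearer, and Ccl2 was nearest to Ccl7, with 8 genes nearer. The member nearest to Ccl3 was Ccl4, at 1.57, with 27 genes nearer, whereas that nearest to Ccl4 was Ccl7, at 1.49, with 53 genes nearer. Ccl9 and Ccl6 lay 2.69 apart, with 259 genes nearer to Ccl9 and 1368 nearer to Ccl6. The member nearest to Ccl12 was Ccl2, at 4.20, with 23 genes nearer, or at 2.56 with 13 genes nearer under normexp, and not its neighbour Ccl8. The member nearest to Ccl8 was Ccl7, at 3.37, with 5450 genes nearer, and that nearest to Ccl5 was Ccl4, at 4.11, with 1139 genes nearer. Ccl8 lay at 0.079 from Ccrn4l, whose log2 ratios were 1.91 in M1, -0.31 in Lamtor1-deficient BMDMs and -2.55 after Torin1. The nearest gene was Serpina3g for Ccl2 (0.84), Trib3 for Ccl7 (0.52), Ifitm6 for Ccl12 (1.60), Hyal1 for Ccl3 (0.57) and Arid5a for Ccl4 (0.50). It was Clec4n for Ccl5 (0.59) and Gamt for Ccl9 (0.42). With quantile normalization another gene was nearest to Ccl2, Ccl3, Ccl4 and Ccl5, and with normexp to Ccl12, and Ccrn4l lay at 0.25 and 0.36 from Ccl8. The nearest member of each of the 9 was the same under both, and scaling by a constant per array cannot move a distance. These distances rest on 4 arrays and are descriptions.

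**Figure D5:**
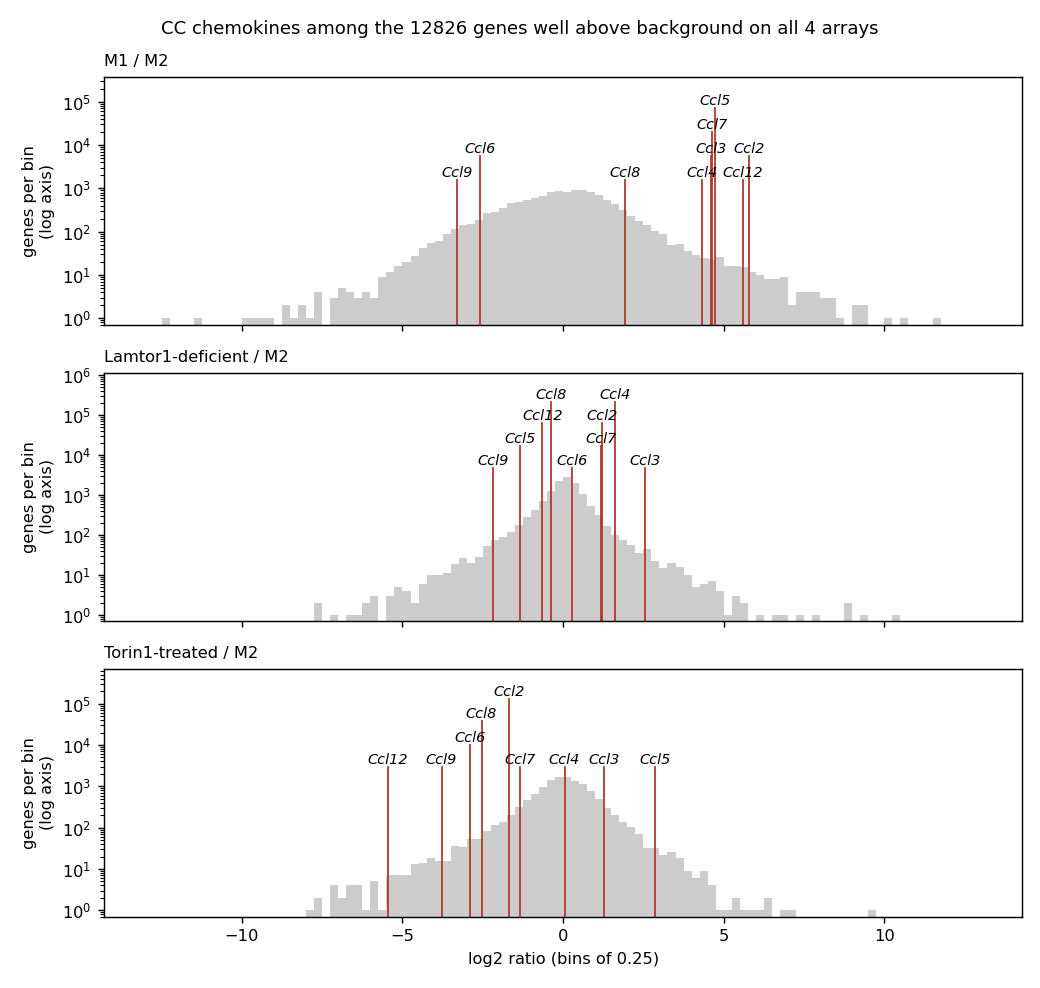
Number of genes per bin of log2 ratio (grey, log axis, bins of 0.25) for the 12826 genes that cleared the background on every array, with the 9 chemokines as red lines whose height only places the labels, in the 3 comparisons with M2. In M1 a group of 6 chemokines lies in the right tail, after loss of Lamtor1 the members are on both sides of 0, and after Torin1 Ccl12 is in the left and Ccl5 in the right tail.

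Among 9 other CC ligands, Ccl11 lies between Ccl7 and Ccl12. This eosinophil attractant was well above background in M2 (0.109) and Lamtor1-deficient BMDMs (0.822), a log2 ratio of 2.91. Not well above background on the other arrays, it lay at least 3.26-fold under M2 in Torin1-treated and at least 1.67-fold under M2 in M1 BMDMs. Of the other ligands well above background on at least 1 of the arrays compared, 1 of 5 was at least 2-fold higher and 2 were lower in M1 than in M2 (Ccl17 and Ccl24), with a bound counted at its own size. After loss of Lamtor1 3 of 6 were higher (Ccl11, Ccl17 and Ccl22) and 1 was lower (Ccl24), and after Torin1 0 of 6 were higher and 4 were lower. Of all genes, 30.5% were higher and 19.3% lower in M1, 8.85% and 8.68% after loss of Lamtor1, and 14.3% and 11.8% after Torin1. Ccl17, a CCR4 ligand and a classical IL-4 target, had a normalized signal of 1.48 in M2, 9.04 in Lamtor1-deficient BMDMs and 0.118 after Torin1.

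Receptors of the members were listed as well. Ccr2, the receptor of Ccl2, Ccl7 and Ccl12, had a normalized signal of 0.240 in M1, 2.26 in M2 and 0.0579 in Lamtor1-deficient BMDMs, and after Torin1 its probe did not clear the background, which bounds it at least 67.3-fold below M2. Ccrl2, an atypical receptor of activated macrophages, had 14.9 in M1, 1.06 in M2, 4.41 in Lamtor1-deficient BMDMs and 12.5 after Torin1 and was higher in all 3 comparisons. Of the receptors and decoys well above background on at least 1 array compared, 4 of 7 were at least 2-fold higher and 3 lower in M1, 1 of 6 higher and 4 lower after loss of Lamtor1, and 2 of 6 higher and 3 lower after Torin1. The shares over all genes given for the other ligands stand beside these counts too.

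Of 17 listed regulators of these genes (among them NF-κB, IRF and AP-1 factors, their inhibitors and the mRNA decay factor Zfp36), all 17 were well above background. In M1, 10 were at least 2-fold higher than in M2 and 0 lower. After loss of Lamtor1 0 were higher and 4 were lower (Irf5, Irf7, Fos and Zfp36), and after Torin1 2 were higher (Tnfaip3 and Irf1) and 2 lower (Nfkb1 and Fos). Of the 12826 genes, 23.9% were higher and 25.9% lower in M1, 7.03% and 7.33% after loss of Lamtor1, and 11.5% and 12.7% after Torin1. The regulator counts after Torin1 were near these shares. Irf7, a factor of the interferon response, had log2 ratios of 6.01 in M1, -2.43 after loss of Lamtor1 and 0.80 after Torin1. The log2 ratio of Zfp36, which destabilizes inflammatory mRNAs, was 3.45 in M1, -1.18 after loss of Lamtor1 and -0.0026 after Torin1. The part of these regulators in the chemokine ratios was not tested.

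The cultures were bulk samples, so a change in the number of cells of a type and a change in RNA per cell cannot be told apart. All 8 macrophage markers were well above background on all 4 arrays, with a summed normalized level of 475 in M1, 799 in M2, 645 in Lamtor1-deficient BMDMs and 661 after Torin1. Against M2, 1 of them was at least 2-fold higher and 2 were lower in M1, 3 were lower after loss of Lamtor1 (Adgre1, Fcgr1 and Cd14) and 2 after Torin1 (Adgre1 and Fcgr1). The shares given above with the regulators and the other ligands stand beside the counts of all marker lists. Fcgr1, an Fc receptor, had log2 ratios of 2.49 in M1, -4.96 after loss of Lamtor1 and -4.61 after Torin1. Of 8 neutrophil markers 6 were found on the array, and 4 to 6 of them were well above background on each array. Their summed level was 90.5 in M2 and 4.41, 6.30 and 5.87 in M1, Lamtor1-deficient and Torin1-treated BMDMs. The M2 array thus stood apart from the rest. S100a9 alone made up 65.3 of the M2 sum, and all 6 markers were at least 2-fold lower than in M2 in each of the 3 comparisons. Of 6 fibroblast markers 4 to 6 were well above background, and their summed level was 16.0 in M1, 43.2 in M2, 55.9 in Lamtor1-deficient BMDMs and 15.3 after Torin1. Col1a2 alone made up 30.9 of the M2 sum, and the rise of the sum in the deficient cells was within 2-fold. Of the 6, 2 were at least 2-fold higher than in M2 after loss of Lamtor1 (Dcn and Pdgfra) and 0 were lower. After Torin1 0 were higher and 3 lower, and in M1 1 was higher (Dcn) and 4 were lower. Dcn had 9.27 in M1, 1.58 in M2, 5.96 in Lamtor1-deficient BMDMs and 1.03 after Torin1. Of 8 lymphocyte markers 3 to 6 were well above background, at summed levels of 7.49 to 15.1. Cd79a, a B-cell marker, was well above background on all 4 arrays (0.368, 0.496, 0.139 and 0.163 in M1, M2, Lamtor1-deficient and Torin1-treated BMDMs), and Ms4a1, another, was so on none. Cd3e of T cells and Nkg7 of T and NK cells were well above background on all 4 arrays, with log2 ratios of -0.02 and 0.08 after loss of Lamtor1, and Cd3d, Cd3g and Ncr1 were so in the Lamtor1-deficient cells alone. The part of other cells in the chemokine ratios was not tested.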

How the data were processed

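RNA of 4 BMDM cultures was labelled with Cy3 and hybridized, each to 1 Agilent array in 1 colour. The authors deposited scanner files whose processed signal intensities are background-subtracted and detrended within the array by Feature Extraction and are not normalized between arrays. The files name its version 10.7.3.1, and the methods and processing notes 10.5.1.1. A deposited table of the series held the same intensities, within 0.497%.

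Following the methods, the raw signal threshold was 1.0, each array was divided by its 75th percentile over 55681 non-control probes, and ratios were taken to M2 on the log2 scale with no filter. Control spots and 170 to 226 outlier spots per array were left out, spots of a probe were averaged, and the brightest probe stood for a gene. No spot was saturated. Depth was read as signal over background. Of the probes, 51.0% to 55.5% were well above background, from a signal of 15.7 to 21.6. The number of arrays limits the precision, and with 1 per condition there was no test. Where a probe was not well above background on 1 of the arrays compared, a bound against the lowest such signal is given as "at least". The members and gene lists were chosen with earlier results of these data known. Named genes are the members, Lamtor1, genes of the lists, and for each member the gene at the smallest distance over the 3 log2 ratios to M2. A few of them are left unreported. Those of the lists given with values were picked after their values had been seen.

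Alternatives were a shift to the median, quantile normalization, a 75th percentile taken over the probes that cleared the background on every array, normexp correction on mean signals and local background with an offset of 50, raising dim signals to the lowest one above background, a filter for probes that cleared it on 1 or on both of the arrays, outlier spots kept, the mean of all probes of a gene, a 3-fold limit and the series table. Recomputing distances, spans, ranks and the lowest array under the scalings and normexp was added after the data had been seen. The procedure was tested on simulated data. RefSeq tables (GRCm38.p6) gave gene order for 9 of 9 members and upstream sequences for 5. Upstream sequences were aligned locally (match 1, mismatch -1, gap opening -3, gap extension -1). Python 3.11.15 with NumPy 2.4.6, pandas 2.3.3 and matplotlib 3.10.9, and R 4.3.3 with limma 3.58.1 were used.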

Additional observations from a re-analysis of the deposited data

How the results depend on the processing

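Of 36 log2 ratios (9 members in 4 comparisons), 32 were past 2-fold, and all 32 kept their sign and stayed past 2-fold under the 6 alternatives that moved any of them. Among those 6, keeping outlier spots moved a ratio by at most 0.00953, and the series table, with the same intensities, by at most 0.00838. Both therefore test little. The 4 other alternatives (both filters, the floor and the mean of all probes) moved no member, as each had 1 probe well above background on every array, and so test nothing here. The 4 ratios under 2-fold stayed there, and the only change of sign was that of Ccl4 in Torin1 over M2, from 0.04 to -0.20 with the shift to the median. With a 3-fold limit, 2 members were higher and 1 was lower in Lamtor1-deficient BMDMs (4 and 2 at 2-fold), and 1 was higher and 5 were lower after Torin1 (2 and 6 at 2-fold). The shift to the median lowered every M1 log2 ratio, for instance Ccl2 from 5.79 to 4.97, Ccl7 from 4.65 to 3.82 and Ccl9 from -3.30 to -4.12, and moved the median of all genes from 0.74 to -0.08. After Torin1 that median moved from -0.05 to -0.30. Normexp brought Ccl12 from -5.46 to -3.52 in Torin1 over M2 and from -4.81 to -2.93 in Torin1 over Lamtor1-deficient BMDMs. The cause was not tested.

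The background shares depend more on the scaling. Of the 12826 genes, those called in M1 were higher in 48.0% of cases, and in 18.9% with the shift to the median. The values were 47.6% and 30.0% for Torin1 over M2, and 44.8% and 23.8% for Torin1 over Lamtor1-deficient BMDMs (58.0% with the percentile over probes well above background). Over all genes the share fell from 61.3% to 32.7% in M1 (43.7% with quantile normalization), from 54.7% to 38.8% in Torin1 over M2 and from 52.2% to 32.3% in Torin1 over Lamtor1-deficient BMDMs (62.6% with the percentile over probes well above background, 40.3% with normexp). All genes called higher in M1 numbered 7074, and 3592 with the shift to the median or 4322 with quantile normalization, and those lower 4473 and, with the shift, 7391. Of the 12826 genes, 3071 were higher in M1 and 3324 lower, and 1325 and 5696 with the shift. After Torin1 1481 were higher, and 983 with the shift, and 1539 were lower in Torin1 than in Lamtor1-deficient BMDMs, and 2680 with the shift. Over all genes normexp gave fewer calls, with 1065 higher and 962 lower after loss of Lamtor1 (2053 and 2012 before), 1381 and 1680 after Torin1 (3305 and 2733 before), and 1095 and 1625 in Torin1 over Lamtor1-deficient BMDMs (2943 and 2700 before, the latter 4192 with the shift). No paired analysis was possible because each condition had 1 array.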
